A study of Homo sapiens with 80 samples.

Results

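Long RNAs that carry microRNAs were followed through hypergravity and heat shock. They are MIRLET7BHG, MIR17HG, MIR22HG, MIR155HG and MIR181A1HG, 5 of the 60663 genes with a usable record in the count table. They were taken as the rows whose Ensembl identifier maps to these symbols. The set was proposed with earlier results of these data in view, and MIRLET7BHG was chosen by its calls in all 8 comparisons of 9 g with 1 g, so its values at 9 g are given as a description with no test. The p-values of the other members come from the fit over all genes, for genes named with such results known.

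The samples were Jurkat T cells, clone E6-1, an immortalized line grown from a human T lymphocyte leukemia, so that all groups share a single clonal line. In the 9 g experiment, cells in pipettes were spun at 9 g, the groups hypg20s and hypg75s for 20 and 75 s, and the groups hypg3, hypg5, hypg7, hypg9, hypg15 and hypg60 for the number of minutes in their names. Per the paper, groups spun for less than 15 min were first held at 1 g, to a total of 15 min. Controls stayed at 1 g, Ctrl for 15 min and Ctrl60 for 60 min, with 6 libraries in each group. The deposited columns name Ctrl60 as control plus HEPES, wait1min as instant and wait4min as 1 min, and the names of the labels are used. The columns of hypg60 name no HEPES, and a difference in medium between hypg60 and Ctrl60 was not tested. In the other experiment, a tabletop centrifuge spun cells for 5 min at 300 g, and they were lysed 1 min (wait1min), 4 min (wait4min) or 15 min (wait15min) after the stop, were kept in a water bath at 42 °C for 5 min (heat), or were not centrifuged (A-Ctrl), with 4 libraries in each group. Each of the 7 groups up to 15 min was compared with Ctrl, hypg60 with Ctrl60, and the 300 g and heat groups with A-Ctrl, so that comparisons with the same control share its libraries. The paper states that the A-Ctrl samples were fixed directly. A-Ctrl is thus not matched to the 300 g and heat groups in time or handling, which cannot be told apart from the treatment.

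A microRNA is cut from a long primary transcript. The nuclear enzyme DROSHA with its partner DGCR8 releases a hairpin, DICER1 trims it in the cytoplasm, and an Argonaute protein carries the mature strand, whose seed (bases 2 to 8) pairs with target mRNAs. In T cells, miR-181a is known to tune the sensitivity of the T cell receptor, the cluster from miR-17 to miR-92a to promote lymphocyte growth and survival, and miR-155 to rise on immune activation, while the let-7 family restrains growth and miR-22 has been studied in blood cancers.

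The mature microRNAs themselves were not measured. The libraries held total RNA depleted of ribosomal RNA, and the values below count read pairs in the exons of the host transcripts. The mature strands that these hosts encode are shown so that the product behind each host can be read, with the seed in capitals, 5′ to 3′, from RefSeq on GRCh38.p14. RefSeq placed 14 microRNA genes inside the 5 hosts, on the strand of the host, and 13 of their mature strands, with 9 seeds, are given.
let-7a-5p: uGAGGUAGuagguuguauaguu
let-7b-5p: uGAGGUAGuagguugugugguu
miR-3619-5p: uCAGCAGGcaggcuggugcagc
miR-17-5p: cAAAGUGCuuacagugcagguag
miR-20a-5p: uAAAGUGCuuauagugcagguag
miR-18a-5p: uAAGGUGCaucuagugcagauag
miR-19a-3p: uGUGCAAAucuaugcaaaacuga
miR-19b-3p: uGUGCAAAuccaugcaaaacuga
miR-92a-3p: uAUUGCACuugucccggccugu
miR-22-3p: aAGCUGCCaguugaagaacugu
miR-155-5p: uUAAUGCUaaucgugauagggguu
miR-181a-5p: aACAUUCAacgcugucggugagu
miR-181b-5p: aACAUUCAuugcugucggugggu

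MIRLET7BHG encodes let-7a and let-7b, which share a seed and differ at 2 of 22 positions, as well as miR-3619 and miR-4763, whose strand is not shown. MIR17HG encodes 6 microRNAs with 4 seeds among the strands shown: miR-17 and miR-20a share one, miR-19a and miR-19b share another, and those of miR-18a and miR-92a stand alone. MIR181A1HG encodes miR-181a and miR-181b, which share a seed and differ at 3 of 23 positions. Identical mature strands of let-7a, miR-19b, miR-92a, miR-181a and miR-181b are also encoded at other places in the genome, so a host RNA is 1 of several sources of these strands.

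The hosts differ in size and base composition. On GRCh38 with the Ensembl 104 annotation, MIRLET7BHG (ENSG00000197182) lies on chromosome 22 from 46053869 to 46113928 on the plus strand, with 5728 exon bases and a GC content of 63.6%. MIR17HG (ENSG00000215417) lies on chromosome 13 from 91347820 to 91354579 on the plus strand, with 3774 exon bases and a GC content of 38.1%. MIR22HG (ENSG00000186594) lies on chromosome 17 from 1711493 to 1717174 on the minus strand, with 2986 exon bases and a GC content of 54.0%. It overlaps the span of WDR81 on the opposite strand, and the counting used strand. MIR155HG (ENSG00000234883) lies on chromosome 21 from 25561909 to 25575168 on the plus strand, with 1603 exon bases and a GC content of 37.8%. MIR181A1HG (ENSG00000229989) lies on chromosome 1 from 198777861 to 198937471 on the minus strand, with 5391 exon bases and a GC content of 38.9%. The GC contents come from all transcripts of a gene in an earlier GENCODE release, weighted by length, and not from these exon bases.

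The table also has a row of its own for each of the 14 microRNA genes, and these rows fall into separate kinds. The rows MIRLET7A3, MIR4763, MIRLET7B, MIR17, MIR18A, MIR19A, MIR20A, MIR19B1, MIR92A1, MIR22 and MIR155 lie wholly inside exons of their host (100% of their bases) and held 0 counts in all 79 libraries. A read pair that matches exons of more than 1 gene is assigned to none by the default of featureCounts, so these zeros say nothing of the hairpins. The rows MIR3619, MIR181B1 and MIR181A1 lie wholly in introns and held 2404, 1955 and 508 counts over the 79 libraries. For the same reason, host reads are lost from the 12.5% of the exon bases of MIR17HG, 5.25% of MIRLET7BHG, 4.05% of MIR155HG and 2.85% of MIR22HG that other genes share on the same strand, and MIR181A1HG shares no exon base.

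Total counts of the 79 libraries ran from 22634465 to 41893490, with a median of 30259450. Library 75 (hypg15, total 17205655) was left out: on 10 chromosomes, 90.5% to 100% of the genes averaging 10 counts or more elsewhere read 0 in it, against at most 5% in any other library. Values are CPM, the share of a gene in the counts of its library on a fixed scale, with library sizes scaled by TMM factors within each experiment, and log2 fold changes, standard errors and adjusted p-values come from the quasi-likelihood test of edgeR over all genes with Benjamini-Hochberg adjustment, where p under 0.05 is called upregulated or downregulated. Of 9 markers of a T cell line, 8 reached a median of 1 CPM, with a summed level of 2570 to 4150 CPM per library, and LMO2 stayed under 1 CPM in all. Of 8 markers of other blood cells, 7 stayed under 1 CPM in all libraries and CD79A had a median of 58.8 CPM. The groups hypg3 and hypg15 carry the library numbers 69 to 80 and the other 9 g groups the numbers 1 to 48, so these 2 time points cannot be told apart from their range of library numbers. In bulk RNA, a change in all cells cannot be told apart from a change in the number of cells that make a transcript.

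MIR155HG was too low to test in any comparison. It had no count in 73 of 79 libraries and 8 counts in all: 1 count in each of 2 Ctrl libraries, in 1 hypg75s library and in 2 A-Ctrl libraries, and 3 counts in 1 wait1min library. A count of 0 allows up to 3 counts, which is 0.0716 to 0.133 CPM depending on the library, for counting error only. No library exceeded 3 counts, so that a difference between groups was not detectable at this depth, and no fold change is given for it.

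The other 4 hosts passed the filter on low counts in all 12 comparisons with a control. Per kilobase of exon, MIR17HG had the highest median level in Ctrl, 7.94 CPM per kb, followed by MIRLET7BHG with 2.84, MIR181A1HG with 1.49 and MIR22HG with 0.578. After centrifugation at 300 g, the medians of MIR181A1HG were 15.3, 13.7 and 14.5 CPM per kb at wait1min, wait4min and wait15min and those of MIR17HG were 15.6, 14.5 and 13.3, and the libraries of these hosts overlapped at each waiting time.

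**Figure D1:**
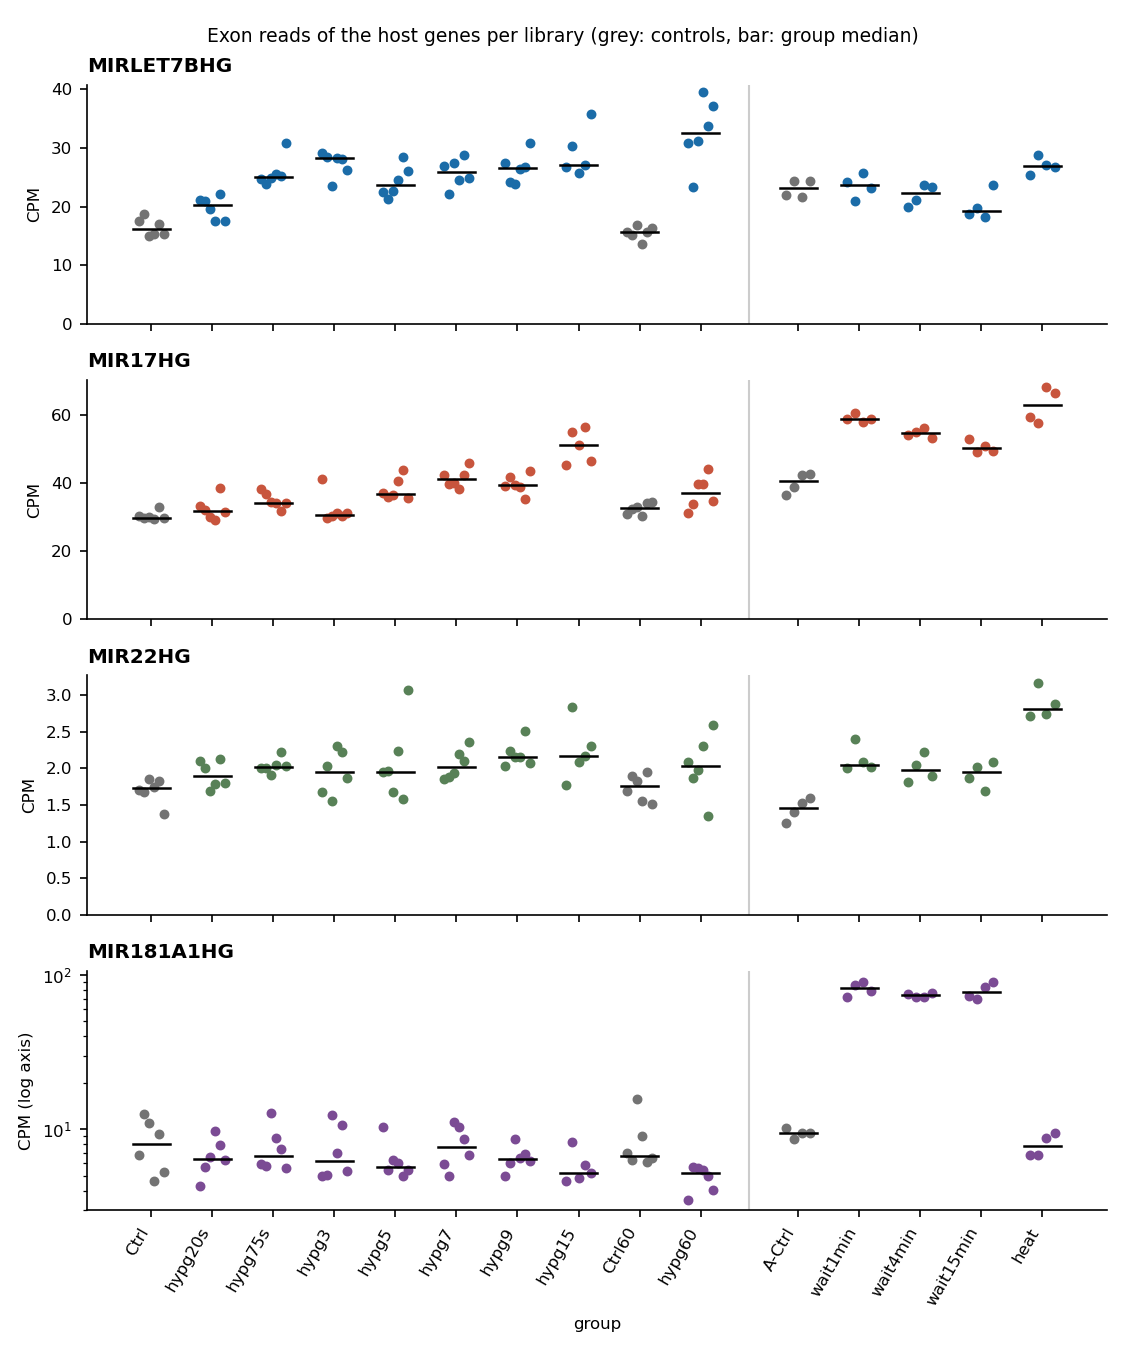
CPM (y axis) of the 4 testable host genes in each library (points) of the 15 groups (x axis), with controls in grey and a bar at the group median. The y axis of MIR181A1HG is logarithmic, and its 3 groups after 300 g sit between 70.3 and 90.2 CPM, above A-Ctrl and heat, which stay at or below 10.2 CPM.

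MIRLET7BHG, the host of let-7a and let-7b, stood higher at every time at 9 g than at 1 g. Its CPM (lowest, median, highest) was 15.0, 16.3 and 18.8 in Ctrl and 17.5, 20.2 and 22.1 in hypg20s, where 4 of 6 libraries lay above all controls. At all later times, every library lay above every library of its control, with medians of 25.0 in hypg75s, 28.2 in hypg3, 23.6 in hypg5, 25.9 in hypg7, 26.6 in hypg9 and 27.0 in hypg15. At 60 min, its CPM was 23.3, 32.5 and 39.5 in hypg60 against 13.7, 15.7 and 16.9 in Ctrl60. In order of the medians, hypg60 stood first, and each group overlapped with the next in the order, down to the controls.

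The log2 fold change of MIRLET7BHG at 9 g, again as a description, was 0.25 ± 0.08 (SE) at 20 s and lay between 0.55 and 0.81 from 75 s to 15 min. It reached 1.07 ± 0.11 at 60 min, a 2.10-fold difference, and 419 tested genes had a higher log2 fold change there. The 5 libraries of hypg15 read 26.8, 30.3, 25.8, 27.0 and 35.7 CPM. The difference between the effects at 60 min and 9 min, each against its own control, was a log2 value of 0.39 ± 0.14. Between hypg9 and hypg75s, MIRLET7BHG differed by a log2 value of 0.03 ± 0.07, and between hypg15 and hypg3 by 0.09 ± 0.09.

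The level of MIRLET7BHG moved with the base composition of the libraries. Over the 59 libraries at 9 g, its log2 CPM had a Pearson r of -0.57 with the level of GC-poor genes relative to GC-rich genes (GC content of at most 43.5% and at least 56.9%, 4079 genes each), and -0.568 after the group means were removed. With a correction for GC content, an offset for each gene in each library from a smooth fit of its level on GC content, its log2 fold changes were 0.11 at 20 s, 0.44 to 0.61 from 75 s to 15 min and 0.91 at 60 min, smaller than without it at each time. With 3 surrogate variables as covariates, which are hidden factors estimated from the counts, they were 0.30 at 20 s, 0.35 at 75 s, 0.58 at 3 min, 0.25 at 5 min, 0.38 at 7 min, 0.0315 at 9 min, 0.38 at 15 min and 0.38 at 60 min. These fits called few genes of any kind at most times, 193 at 75 s, 0 at 5 min, 28 at 7 min, 4 at 9 min, 2 at 15 min and 5 at 60 min, against 1324 at 20 s and 5540 at 3 min. The part of base composition in the result was not tested. The genes most like it across the 59 libraries were TTC34 with r = 0.948, CELSR2 with r = 0.935 and LRP1 with r = 0.933, with GC contents of 62.9%, 60.6% and 59.2%, and they share its libraries, depth and high GC content.

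The row MIR3619 lies in an intron of MIRLET7BHG and stood higher at 9 g as well. Its CPM (lowest, median, highest) was 0.498, 0.544 and 0.75 in Ctrl, 0.345, 0.502 and 0.932 in Ctrl60 and 1.10, 1.42 and 1.94 in hypg60, so that hypg60 did not overlap with its control. The groups hypg9 and hypg15 did not overlap with Ctrl either, while hypg20s, hypg75s, hypg3, hypg5 and hypg7 did. The log2 fold change was 0.19 ± 0.17 at 20 s, 1.14 ± 0.17 at 9 min and 1.40 ± 0.22 at 60 min. These values come from the contrasts that chose MIRLET7BHG and are given with no test. On the same strand, PRR34-AS1 overlaps the first part of the host and had a log2 fold change of -0.05 ± 0.25 at 60 min (adjusted p = 0.902). Its neighbour PPARA, a nuclear receptor of fatty acid metabolism 36592 bases away, rose by a log2 value of 0.42 ± 0.10 (adjusted p = 0.00706).

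After 300 g, the change of MIRLET7BHG was small and its direction depended on the scaling. Its CPM was 22.0, 24.4, 21.6 and 24.3 in A-Ctrl, 24.2, 20.9, 25.7 and 23.1 in wait1min and 20.0, 21.2, 23.6 and 23.3 in wait4min, and both groups overlapped with the control. The log2 fold changes were 0.02 ± 0.07 (adjusted p = 0.818) and -0.07 ± 0.06 (adjusted p = 0.307), and with the GC correction they were 0.77 (adjusted p = 1.12e-10) and 0.63 (adjusted p = 1.09e-13). With scaling by total counts only, they were 0.26 (adjusted p = 0.00265) and 0.19 (adjusted p = 0.00947). At wait15min, its CPM was 18.8, 19.8, 18.2 and 23.7, with 3 of 4 libraries below all controls, and it was called downregulated with a log2 fold change of -0.20 ± 0.07 (adjusted p = 0.0177), which turned to 0.50 with the GC correction (adjusted p = 1.86e-07) and to 0.06 with scaling by total counts only (adjusted p = 0.475). The call was lost without library 50, 52, 61 or 63 (adjusted p = 0.0639, 0.0518, 0.0628 and 0.0795). The row MIR3619 was not called at any waiting time (log2 fold changes from -0.42 to -0.14).

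Heat shock raised MIRLET7BHG slightly. Its CPM was 25.3, 28.8, 27.1 and 26.8 in heat, all above the 4 libraries of A-Ctrl. It rose by a log2 value of 0.30 ± 0.06, or 1.23-fold (adjusted p = 0.00267). In the same comparison, LINC02939, which lies inside the span of the host on the opposite strand, rose by 0.78 ± 0.20 (adjusted p = 0.0107) and PPARA fell by 0.24 ± 0.05 (adjusted p = 0.00289) on the log2 scale.

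MIR17HG, the host of the cluster from miR-17 to miR-92a, was upregulated at 5 of 8 times at 9 g and most at 15 min. Its CPM (lowest, median, highest) was 29.5, 30.0 and 33.1 in Ctrl and 29.2, 31.9 and 38.7 in hypg20s, and the log2 fold change of 0.09 ± 0.06 at 20 s was not called (adjusted p = 0.352). In hypg75s it was 31.8, 34.3 and 38.4 CPM, with 5 of 6 libraries above all controls and a log2 fold change of 0.21 ± 0.05 (adjusted p = 0.00391). In hypg3, 29.8, 30.7 and 41.2 CPM overlapped with Ctrl (log2 fold change 0.06 ± 0.07, adjusted p = 0.533, and -0.0198 without library 69, the highest).

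From 5 to 15 min, all libraries of MIR17HG lay above all controls. The medians were 36.9 CPM in hypg5, 41.2 in hypg7 and 39.4 in hypg9, with log2 fold changes of 0.33 ± 0.06 (adjusted p = 0.00475), 0.45 ± 0.05 (adjusted p = 0.000294) and 0.39 ± 0.05 (adjusted p = 0.000171). In hypg15 the libraries read 45.5, 55.1, 51.3, 56.5 and 46.6 CPM. It rose by a log2 value of 0.74 ± 0.07, or 1.67-fold (adjusted p = 2.59e-06). At 60 min, 31.4, 37.2 and 44.1 CPM in hypg60 overlapped with 30.5, 32.6 and 34.6 in Ctrl60, and the log2 fold change of 0.20 ± 0.08 was not called (adjusted p = 0.0742). It passed in 4 alternative settings and without library 9 (0.24, adjusted p = 0.045), among the settings scaling by total counts only (adjusted p = 0.0357) and the GC correction (log2 fold change 0.52, adjusted p = 0.00862).

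The difference between the times was tested directly for MIR17HG. Between hypg15 and hypg3, which carry adjacent library numbers, it was higher by a log2 value of 0.65 ± 0.09 at 15 min (adjusted p = 0.0011), with all 5 libraries of hypg15 above all 6 of hypg3. In all, 2.54% of the genes tested were called in that comparison, and MIR17HG was the 1 called member of the 3 tested beside MIRLET7BHG. With 3 surrogate variables the difference was 0.52 and not called (adjusted p = 0.212), in a fit that called 10 genes in all. Between hypg9 and hypg75s the difference of 0.18 ± 0.05 did not pass (adjusted p = 0.0728), although DESeq2 called it (adjusted p = 0.0398). The difference between the effects at 60 min and 9 min was -0.18 ± 0.10 (adjusted p = 0.474). In order of the medians at 9 g, hypg15 stood first and Ctrl last, and every group overlapped with the next one.

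The same description gave smaller values for MIR17HG. Its r with the GC-poor genes relative to the GC-rich genes was -0.298, and -0.168 after the group means were removed. As a GC-poor transcript, it had larger log2 fold changes with the GC correction at all 8 times, up to 1.27 at 15 min, and it was then also called at 20 s (0.38, adjusted p = 0.0187) and 3 min (0.42, adjusted p = 0.0142). The genes most like it were DIABLO, a mitochondrial protein that promotes apoptosis, with r = 0.755, and the genes ENSG00000286482 and ENSG00000243176 with r = 0.745 and 0.744. With 3 surrogate variables as covariates, 1 of its 5 calls at 9 g was kept, at 7 min, the log2 fold change at 15 min was 0.85 (adjusted p = 0.0664), and that at 9 min turned to -0.16 (adjusted p = 1). It was 0.29 at 75 s (adjusted p = 0.243) and 0.11 at 5 min (adjusted p = 0.833).

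At 300 g, the direction of MIR17HG depended on how base composition was treated. Its CPM was 36.5, 38.8, 42.5 and 42.6 in A-Ctrl and 59.0, 60.7, 58.1 and 59.0 in wait1min. It was 54.3, 55.1, 56.2 and 53.2 in wait4min and 53.1, 49.3, 50.9 and 49.6 in wait15min, so that the 3 groups overlapped neither with the control nor with the next one in the order. The log2 fold changes were 0.55 ± 0.05 at wait1min, 0.44 ± 0.05 at wait4min and 0.33 ± 0.05 at wait15min (adjusted p = 2.02e-08, 1.34e-08 and 7e-06). Between 5712 and 6775 tested genes had a higher log2 fold change, and 41.4% to 41.8% of all tested genes were called higher.

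With the GC correction, these changes of MIR17HG were -0.86, -0.90 and -1.02, each past the threshold in the opposite direction. Base composition moved strongly with 300 g: relative to A-Ctrl, GC-poor genes stood above GC-rich genes by 1.61 to 1.78 in log2 units in the 12 libraries after 300 g, against -0.106 to 0.168 in the A-Ctrl libraries. Over all genes, the log2 fold change at wait1min had a Spearman rho of -0.701 with GC content. Whether the rise of MIR17HG is part of that shift was not tested. Between wait15min and wait1min, MIR17HG was lower by a log2 value of -0.22 ± 0.04 (adjusted p = 0.0139), and the call was lost without library 62 (adjusted p = 0.0929), without library 63 (adjusted p = 0.0703) and with the GC correction (-0.16, adjusted p = 0.183).

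Heat shock gave a rise of MIR17HG that held under the GC correction. Its CPM was 59.4, 57.6, 68.4 and 66.6 in heat, all above the 4 libraries of A-Ctrl. The log2 fold change was 0.72 ± 0.06, or 1.64-fold (adjusted p = 3.71e-07), and 0.76 with the correction. GC-poor and GC-rich genes differed little after heat, between -0.158 and -0.0361 in log2 units relative to A-Ctrl.

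MIR22HG, the host of miR-22, had the lowest level of the testable members, 33 to 100 counts per library, so that its values are the least precise. Its CPM (lowest, median, highest) was 1.38, 1.73 and 1.86 in Ctrl and 1.69, 1.90 and 2.12 in hypg20s. The medians at 9 g then lay between 1.95 and 2.17 CPM, against 1.75 in Ctrl60. The groups hypg75s and hypg9 did not overlap with Ctrl, and the other groups at 9 g overlapped with their control.

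The log2 fold change of MIR22HG at 9 g was above 0 at all 8 times, though it turned to -0.56 at 60 min with 3 surrogate variables as covariates, and was called at 3 of them. It was 0.27 ± 0.09 at 75 s (adjusted p = 0.0365), 0.37 ± 0.10 at 9 min (adjusted p = 0.0139) and 0.40 ± 0.13 at 15 min (adjusted p = 0.0189). The hypg15 libraries read 1.77, 2.83, 2.09, 2.17 and 2.31 CPM, and without library 77, the highest, the log2 fold change of 0.29 was not called (adjusted p = 0.0737). The call at 75 s was lost at nearly the same log2 fold change with no filter (0.26, adjusted p = 0.137), DESeq2 (0.27, adjusted p = 0.128), a single model (0.26, adjusted p = 0.12), the exon length correction (0.27, adjusted p = 0.0501) and without library 24 (0.27, adjusted p = 0.0554). It was also lost with the GC correction (0.18, adjusted p = 0.235) and without library 6 (0.21, adjusted p = 0.131). The call at 15 min was lost with no filter (0.37, adjusted p = 0.0548) and with the GC correction (0.21, adjusted p = 0.256). With 3 surrogate variables none of the 3 calls was kept (0.35, 0.30 and 0.58, adjusted p = 0.591, 1 and 0.508), in fits that called 193, 4 and 2 genes in all. At 60 min, the log2 fold change was 0.23 ± 0.14 (adjusted p = 0.24). The genes most like MIR22HG were PKD1 with r = 0.656 and RHPN1 and PLXNB1, both with r = 0.653.

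Of the 12 comparisons with a control, heat shock gave the largest change of MIR22HG, although with the GC correction wait1min stood slightly above it (1.09 against 1.04). Its CPM was 1.25, 1.41, 1.52 and 1.59 in A-Ctrl and 2.71, 3.17, 2.74 and 2.88 in heat. The groups did not overlap, and the heat group stood above all others in the order, with no overlap with the next, wait1min. It rose by a log2 value of 1.06 ± 0.13, or 2.08-fold (adjusted p = 3.88e-05), with 333 tested genes higher. WDR81, which shares its locus on the opposite strand, differed by -0.03 ± 0.03 (adjusted p = 0.547), and PRPF8, a core splicing factor nearby, by 0.02 ± 0.03 (adjusted p = 0.678). The gene ENSG00000277597, 26341 bases away, stood higher by a log2 value of 1.21 ± 0.28, with no test given, since with this control it passed the filter on low counts only in the comparison with heat.

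After 300 g, MIR22HG was upregulated at all 3 waiting times, as were 41.4% to 41.8% of all tested genes. Between 5715 and 6456 tested genes had a higher log2 fold change than MIR22HG. Its CPM was 2.01, 2.40, 2.08 and 2.02 in wait1min, 1.81, 2.05, 2.22 and 1.90 in wait4min and 1.87, 2.02, 1.69 and 2.08 in wait15min, all above the highest A-Ctrl library. The log2 fold changes were 0.55 ± 0.15 (adjusted p = 0.00213), 0.45 ± 0.15 (adjusted p = 0.00741) and 0.40 ± 0.15 (adjusted p = 0.0206), and the last was lost with no filter (adjusted p = 0.0727), with DESeq2 (adjusted p = 0.062) and without library 49 (adjusted p = 0.0713). With the GC correction they were larger, 1.09, 0.97 and 0.91. Its neighbours WDR81 and PRPF8 fell by 0.76 and 0.74 at wait1min on the log2 scale (adjusted p = 3.26e-12 and 8.09e-12). The difference of MIR22HG between wait15min and wait1min was -0.15 ± 0.14 (adjusted p = 0.688).

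**Figure D2:**
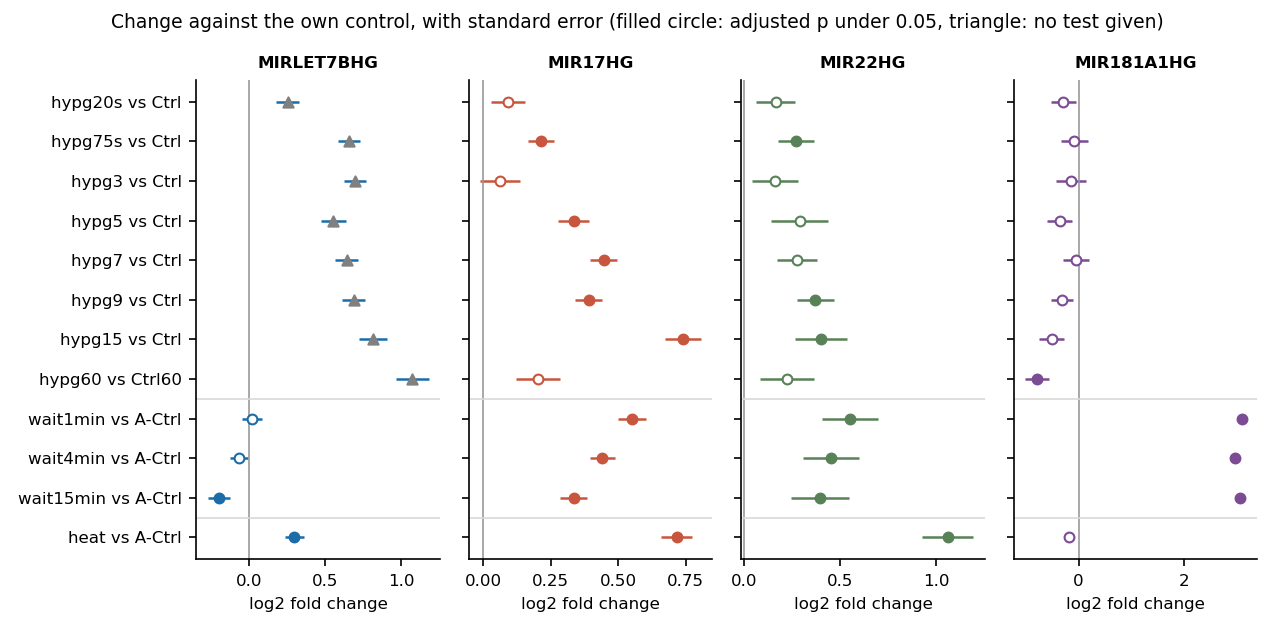
Log2 fold change (x axis) of each testable host gene against its own control in 12 comparisons (y axis), with the standard error. Filled circles passed an adjusted p of 0.05, open circles did not, and triangles mark the values of MIRLET7BHG at 9 g that are given with no test. MIR181A1HG reaches 2.97 to 3.11 after 300 g, and the rise of MIR17HG after 300 g turned to a fall with a correction for GC content.

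MIR181A1HG, the host of miR-181a and miR-181b, showed the largest change of all members, at 300 g. Its CPM was 10.2, 8.60, 9.44 and 9.44 in A-Ctrl and 71.9, 85.8, 90.2 and 78.9 in wait1min. It was 75.6, 72.1, 71.6 and 76.6 in wait4min and 72.6, 70.3, 83.2 and 89.5 in wait15min. All 12 libraries after 300 g lay above the control, and the 3 waiting times overlapped with each other.

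The log2 fold changes of MIR181A1HG were 3.11 ± 0.07 at wait1min, 2.97 ± 0.05 at wait4min and 3.06 ± 0.08 at wait15min (adjusted p = 6.07e-16, 1.62e-21 and 8.33e-17), that is 8.64-fold, 7.85-fold and 8.37-fold. Between 153 and 180 tested genes had a higher log2 fold change, so that 98.9% to 99.1% of the tested genes lay below it. With the GC correction, the changes were 1.80, 1.73 and 1.81, and scaling, filter, tool or a left-out library ended no call. The median log2 fold change of all genes in these 3 comparisons was 0.25 to 0.271 when scaled by total counts only, against 0.00555 to 0.0102 with TMM factors. Wait15min and wait1min differed by -0.04 ± 0.07 (adjusted p = 0.831).

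The microRNA rows in an intron of MIR181A1HG were also higher after 300 g. Their hairpins, as RefSeq gives them on GRCh38.p14, are printed 5′ to 3′ with the mature strands in capitals because reads fell on these stretches. MIR181A1 is at chr1:198859044-198859153 and MIR181B1 at chr1:198858873-198858982, both on the minus strand.
MIR181A1: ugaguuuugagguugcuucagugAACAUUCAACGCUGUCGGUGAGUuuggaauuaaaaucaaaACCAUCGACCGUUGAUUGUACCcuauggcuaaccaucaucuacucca
MIR181B1: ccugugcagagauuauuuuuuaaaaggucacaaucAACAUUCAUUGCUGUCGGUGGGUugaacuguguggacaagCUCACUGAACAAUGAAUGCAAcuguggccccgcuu

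MIR181B1 had 12 to 17 counts per library in A-Ctrl, 80 to 109 in wait1min, 72 to 94 in wait4min and 68 to 88 in wait15min, with no overlap with the control. Its log2 fold changes were 2.69 ± 0.16, 2.56 ± 0.17 and 2.39 ± 0.18 (adjusted p = 3.97e-11, 3.23e-12 and 5.5e-10). MIR181A1 had 0 to 5 counts per library in A-Ctrl and 15 to 50 after 300 g, with 9 counts in all in A-Ctrl and 141, 96 and 116 at the 3 waiting times. It passed the filter on low counts only in comparisons that hold a 300 g group, where it is high, so no test is given for it. Reads on these rows can come from the unspliced host RNA as well as from the hairpins. The 5p strands, miR-181a-5p and miR-181b-5p, each have an identical copy elsewhere in the genome, and a read that matches both copies could not be told apart.

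**Figure D3:**
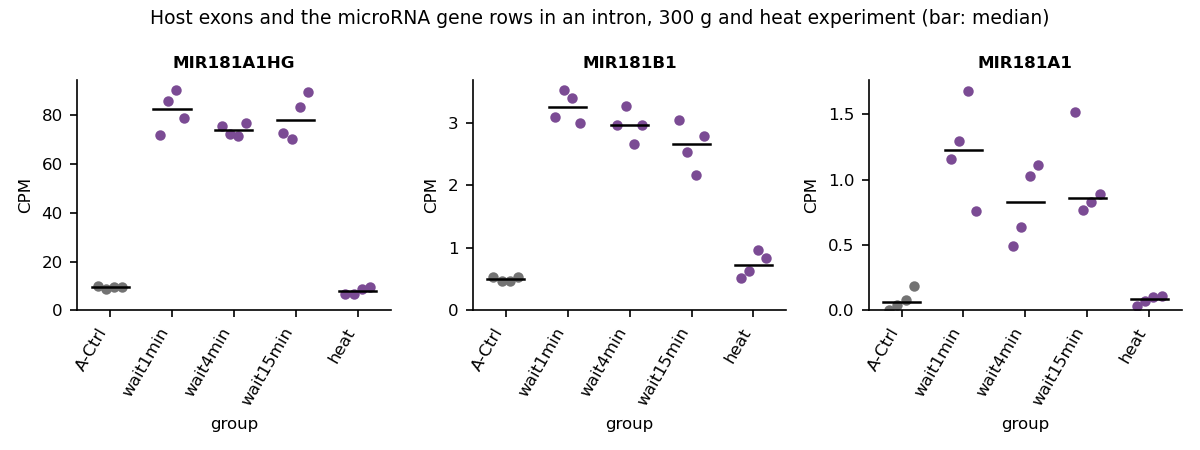
CPM (y axis) of the exons of MIR181A1HG and of the rows MIR181B1 and MIR181A1 in an intron of it, in the 4 libraries (points) of each group of the 300 g and heat experiment (x axis), with a bar at the median. All 3 rows are higher after 300 g at each waiting time, with no overlap with A-Ctrl. In heat, MIR181B1 read 0.521 to 0.973 CPM, against 0.469 to 0.531 in A-Ctrl, and the exons of the host overlapped with the control.

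Genes around MIR181A1HG also rose after 300 g, where 41.4% of all tested genes were called higher at wait1min. At wait1min, the log2 fold change was 2.21 ± 0.08 for PTPRC, the CD45 phosphatase of T cell receptor signalling (adjusted p = 4.37e-14), 1.96 ± 0.09 for NEK7, a mitotic kinase (adjusted p = 1.48e-12) and 3.31 ± 0.09 for LINC01222 (adjusted p = 2.01e-15). LINC01221 passed the filter only in comparisons with 300 g, where its log2 fold change was 2.45 ± 0.44, and is given with no test. PTPRC lies 20384 bases from the host and NEK7 455440 bases from it. No neighbour was tested against the host itself. Values of the neighbours with the GC correction are not given. The part of base composition in their rise was not tested.

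At 9 g, MIR181A1HG varied widely within groups. Its CPM (lowest, median, highest) was 4.63, 8.02 and 12.6 in Ctrl and 6.16, 6.74 and 15.8 in Ctrl60, and the standard deviation in a group came to 18.6% to 44.2% of the mean, against 4.41% to 17.5% for MIR17HG and MIRLET7BHG. The log2 fold changes up to 15 min lay between -0.51 and -0.05 and were not called, and at 20 s, 75 s, 3 min, 7 min and 15 min they turned above 0 with the GC correction, with 3 surrogate variables or with both. The value at 15 min, -0.51, passed with no filter (-0.54, adjusted p = 0.015) and without library 4, 6 or 77 (-0.62, -0.61 and -0.69, adjusted p = 0.0252, 0.0378 and 0.0275). At 60 min, its CPM was 3.50, 5.21 and 5.70 in hypg60, below all 6 libraries of Ctrl60, and it was downregulated with a log2 fold change of -0.79 ± 0.23 (adjusted p = 0.0168). Without library 9, the highest of Ctrl60, the change was -0.48 (adjusted p = 0.0242), a choice made after seeing the data. The change was -0.47 with the GC correction (adjusted p = 0.0281) and -0.99 with 3 surrogate variables as covariates, where it was not called (adjusted p = 0.688). The difference from the effect at 9 min was -0.46 ± 0.34 (adjusted p = 0.658), and -0.175 without library 9 (adjusted p = 0.893).

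The spread of MIR181A1HG at 9 g moved with base composition. Its r with GC-poor genes relative to GC-rich genes was 0.66 over the 59 libraries and 0.747 after the group means were removed. The genes most like it were CAMK4, a calcium-dependent kinase of T cells, with r = 0.896, GOLGA4, a Golgi tether, with r = 0.894 and CASC15, a long noncoding RNA, with r = 0.888, with GC contents of 42.9%, 40.8% and 43.0%. At 60 min its neighbour PTPRC fell by 0.82 ± 0.19 and NEK7 by 0.53 ± 0.18 on the log2 scale (adjusted p = 0.00532 and 0.0339). The part of base composition was not tested. After heat, 6.84, 6.76, 8.72 and 9.40 CPM overlapped with A-Ctrl (log2 fold change -0.18 ± 0.10, adjusted p = 0.223). The row MIR181B1 had a log2 fold change of 0.63 ± 0.25 after heat, which was not called (adjusted p = 0.0821). At 60 min, this row was called lower, at -1.09 ± 0.38 (adjusted p = 0.0418), with 2 to 10 counts per library in hypg60.

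**Figure D4:**
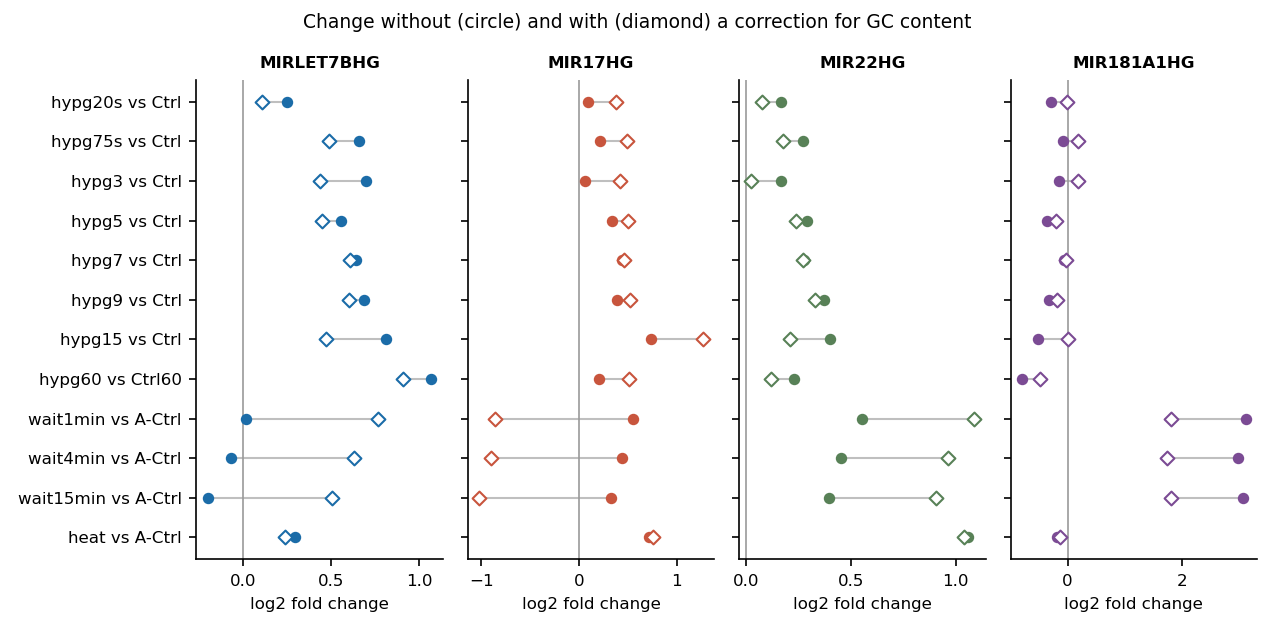
Log2 fold change (x axis) of the 4 testable host genes in 12 comparisons (y axis) without a correction for GC content (circles) and with it (diamonds), joined by a line. MIR17HG turns from 0.33 to 0.55 to between -1.02 and -0.86 after 300 g, MIR181A1HG stays at 1.73 or above there, and the heat values move little.

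The members called were then counted against all genes. MIRLET7BHG is left out of the counts at 9 g, since it was chosen by them. Of the other 3 tested members, 2 were called at hypg75s, hypg9 and hypg15, where 31.3%, 19.6% and 53.4% of all tested genes were called. At hypg5, hypg7 and hypg60, 1 was called, beside 6.02%, 12.8% and 30.1% of all tested genes, and at hypg20s and hypg3 0 were called, beside 15.2% and 41.3%. At hypg20s and hypg3, edgeR gave 0 of these 3 members an unadjusted p under 0.05, and DESeq2 called 0. With 3 members, these shares are too coarse to be set apart from the background.

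After 300 g, 3 of the 4 tested members were called at wait1min and at wait4min and 4 at wait15min, where 81.5%, 82.2% and 82.3% of all tested genes were called, so that a call by itself says little there. After heat, 3 of 4 were called, each of them higher, beside 20.8% of all tested genes called in either direction and 10.6% called higher. In the direct comparisons, 0 of 4 were called between Ctrl60 and Ctrl (0.0124% of tested genes, 0 members at an unadjusted p under 0.05 in edgeR, 0 called by DESeq2) and, with MIRLET7BHG left out again, 0 of 3 between hypg9 and hypg75s (5%, 1 at an unadjusted p under 0.05, 1 called by DESeq2). Between wait15min and wait1min, 1 of 4 was called (0.149%). For the difference between the effects at 60 min and 9 min, 0 of 3 were called, also without MIRLET7BHG (2.04%, 0 at an unadjusted p under 0.05 in edgeR, 0 called by DESeq2).

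Other hosts named as MIR host genes numbered 79 in the table, and the counts here are over the 24 that passed the filter on low counts in all 12 comparisons with a control, a choice made after seeing the data so that none entered through a single high group. Among these, more were called higher than lower in each comparison named here. At 9 min, 11 of 24 were higher and 0 lower, beside 11.3% higher and 8.34% lower of all tested genes (median log2 fold change 0.31, against -0.001), with MIR9-3HG at 0.64 ± 0.07 (adjusted p = 6.62e-05) and MIR23AHG, the host of a cluster expressed in blood cells, at 0.43 ± 0.09 (adjusted p = 0.00301). At 3 min, 7 were higher and 2 lower, or 37.5% called beside 41.3% of all tested genes, and at 15 min 9 were higher and 1 lower, or 41.7% beside 53.4%. At 60 min, 8 were higher and 1 lower, beside 17.1% and 13% of all tested genes (median 0.16, against -0.019), with MIR9-3HG at 1.04 ± 0.10 (adjusted p = 7.56e-06) and MIR3677HG at 1.50 ± 0.14 (adjusted p = 5.01e-06). After heat, 6 were higher and 1 lower, beside 10.6% and 10.2% of all tested genes (median 0.16, against 0.008), with MIR142HG, a host active in blood cells, at 0.32 ± 0.05 (adjusted p = 0.000142) and MIR29B2CHG lower at -0.55 ± 0.07 (adjusted p = 4.04e-05). At wait4min, 16 were higher and 3 lower, in all 79.2% called beside 82.2% of all tested genes (median 0.43, against 0.009), with MIRLET7IHG at 2.94 ± 0.11 (adjusted p = 1e-16) and MIR142HG at 1.14 ± 0.04 (adjusted p = 9.05e-17).

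Another list held protein-coding and other transcripts that carry microRNAs. Of 18 such transcripts, all tested, 2 were higher and 3 lower at 9 min, or 27.8% beside 19.6% of all tested genes, and 4 higher and 2 lower at 60 min, or 33.3% beside 30.1%. At 3 min, 6 were higher and 2 lower, or 44.4% beside 41.3%, and at 15 min 8 higher and 3 lower, or 61.1% beside 53.4%. After heat, 2 were higher and 3 lower, or 27.8% beside 20.8%. At wait4min, 5 were higher and 12 lower, or 94.4% beside 82.2% (median -0.43), with MCM7, a replicative helicase subunit that hosts a relative of the miR-17 cluster, at -0.89 ± 0.02 (adjusted p = 5.94e-19) and PANK3, a kinase of coenzyme A synthesis, at 2.48 ± 0.05 (adjusted p = 3.28e-20). DLEU2, the host of miR-15a and miR-16, fell by 0.45 ± 0.08 on the log2 scale at 60 min (adjusted p = 0.000891).

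The genes that process microRNAs moved in both directions. Of 25 listed and 23 tested, 4 were higher and 2 lower at 9 min, or 26.1% beside 19.6% of all tested genes, among them the Argonaute genes AGO2 at 0.25 ± 0.05 (adjusted p = 0.00464) and AGO1 at 0.14 ± 0.03 (adjusted p = 0.00686) and the DROSHA partner DGCR8 at 0.13 ± 0.04 (adjusted p = 0.0282). At 3 min, 3 were higher and 8 lower, beside 16.9% higher and 24.4% lower of all tested genes (median -0.138, against -0.016). At 15 min, 3 were higher and 9 lower, or 52.2% called beside 53.4% of all tested genes, of which 25.4% were higher and 27.9% lower (median -0.135, against 0.017), and the RNA helicase DDX5 fell by 0.41 ± 0.07 on the log2 scale (adjusted p = 0.000241). At 60 min, 4 were higher and 4 lower, or 34.8% beside 30.1%, with TNRC6C, a scaffold of silencing, at 0.56 ± 0.12 (adjusted p = 0.00294) and HNRNPA1, an RNA-binding protein, at -0.48 ± 0.10 (adjusted p = 0.00255). At wait4min, 13 were higher and 6 lower, or 82.6% beside 82.2%, with DICER1 at 2.12 ± 0.06 (adjusted p = 6.88e-19) and TUT7, a uridylyl transferase, at 2.04 ± 0.04 (adjusted p = 3.92e-20). After heat, 2 were higher and 5 lower, or 30.4% beside 20.8%, with AGO2 at -0.29 ± 0.05 (adjusted p = 0.000305). The shares at 15 min, 60 min and wait4min lie near those of all genes. The wait4min values stand beside the shift in base composition given above, whose part was not tested.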

How the data were processed

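Total RNA of Jurkat T cells, depleted of ribosomal RNA, was sequenced as stranded paired reads. Per the submitters' processing notes, the authors trimmed reads with Trim Galore 0.6.5, aligned them with STAR 2.7.3a to GRCh38 and counted read pairs with featureCounts 2.0.1 (the file header gives 2.0.3), and the deposited values are raw counts per Ensembl 104 gene. DESeq2 1.28.1 was used by the authors for their own comparisons, which were not used here.

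The members, lists and tests were chosen with earlier results of these data known. Library 75 was left out, as was 1 broken record. Counts were filtered with filterByExpr (minimum 10) and scaled by TMM, and each comparison was fitted on its own groups with edgeR 4.0.16 in R 4.3.3 (glmQLFit, glmQLFTest, Benjamini-Hochberg over all genes tested, threshold 0.05). The 9 g and the 300 g experiments were scaled separately, so levels are not compared between them. Alternatives were no filter, RLE factors, total counts, DESeq2 1.42.0, a single model per experiment, 3 surrogate variables (sva 3.50.0), offsets for GC content (lowess, span 0.3) or exon length, library 75 kept, and leaving out each library in turn in the 300 g, heat and hypg15 comparisons. In the other comparisons, libraries 5, 6, 9, 24, 25 and 69, which stood apart in a member, were left out, a choice made after seeing the data.

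Named beside the members were microRNA rows inside them, the nearest tested genes on each side, the 3 genes with the highest correlation of log2 CPM (prior count 2), and up to 4 genes per list by adjusted p. The depth of 22634465 to 41893490 counts sets the floors given. The fit was tested on simulated data. Nothing states that libraries came from separate cultures, so p-values measure the spread between libraries.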

Additional observations from a re-analysis of the deposited data

Results flagged for a closer look

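A single library stood apart from the rest of its group, by Dixon's test at 95%, in 6 of the 60 combinations of gene and group examined, where chance gives about 1 in 20. MIRLET7BHG read 30.8 CPM in library 24 of hypg75s, with the next at 25.5. MIR17HG read 33.1 CPM in library 5 of Ctrl, with the next at 30.3, and 41.2 CPM in library 69 of hypg3, with the next at 31.3. MIR22HG read 1.38 CPM in library 6 of Ctrl, below the next at 1.68. MIR181A1HG read 15.8 CPM in library 9 of Ctrl60, with the next at 9.06, and 10.4 CPM in library 25 of hypg5, with the next at 6.34. Without library 9, MIR181A1HG at hypg60 was called with a log2 fold change of -0.48 (adjusted p = 0.0242, edgeR) in place of -0.79, and without library 69 the value of MIR17HG at hypg3, which was not called, turned to -0.0198. Without library 6, MIR22HG at hypg75s lost its call (0.21, adjusted p = 0.131). These comparisons without a library were chosen after seeing the data.

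MIR17HG differed between time points in a direct test, by a log2 value of 0.651 between hypg15 and hypg3 and by -0.216 between wait15min and wait1min (edgeR, adjusted p = 0.0011 and 0.0139). The first was lost with 3 surrogate variables (0.52, adjusted p = 0.212), and the second without library 62 or 63 of wait15min and with the GC correction.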

How the results depend on the processing

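No paired analysis was possible because the library numbers are not shared between groups. The number of called hosts, without MIRLET7BHG at 9 g, was unchanged in 177 of 218 recomputed counts, changed by a factor of up to 1.5 in 14 and by more in 27. With 3 surrogate variables as covariates, it was 0 at hypg75s, hypg5, hypg9, hypg15, hypg60 and hypg15 against hypg3 (from 2, 1, 2, 2, 1 and 1), in fits that called 193, 0, 4, 2, 5 and 10 genes in all. With the GC correction, it was 1 at hypg20s and hypg3 (from 0), 1 at hypg75s and hypg15 (from 2), 2 at hypg60 (from 1) and 0 for wait15min against wait1min (from 1). At hypg75s it was also 1 with no filter, DESeq2, a single model and the exon length correction and 1 to 2 over the libraries left out, and at hypg60 it was 2 with total counts, a single model, the exon length correction and without library 9. For hypg9 against hypg75s it was 1 with DESeq2 and with the exon length correction (from 0). For wait15min against wait1min, it was 2 with no filter, and leaving out single libraries gave 0 to 1.

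Directions that turned were these, as log2 fold changes. MIR17HG turned with the GC correction at wait1min, wait4min and wait15min (-0.86, -0.90 and -1.02), and with surrogate variables at hypg3, hypg9 and hypg60 (-0.15, -0.16 and -0.00315), and at hypg3 without library 69 (-0.0198, with -0.0198 to 0.0876 over the libraries left out). MIR181A1HG turned with surrogate variables at hypg20s, hypg75s, hypg3 and hypg7 (0.21, 0.0542, 0.19 and 0.0451), with the GC correction at hypg75s, hypg3, hypg15 and wait15min against wait1min (0.19, 0.18, 0.0174 and 0.0122), and for the last also without library 55 or 62 (0.00301 and 0.00583, with -0.112 to 0.00583 over all libraries). MIR22HG turned with surrogate variables at hypg60 and for Ctrl60 against Ctrl (-0.56 and -0.0257). Leaving out libraries 5, 6 and 9 from Ctrl60 against Ctrl gave -0.0319 to 0.0471 for MIR22HG and -0.244 to 0.0741 for MIR181A1HG. MIRLET7BHG turned at wait1min with no filter and without library 51 or 55 (-0.0187, -0.00391 and -0.0231, with -0.0231 to 0.0607 over all libraries), at wait4min and wait15min with total counts (0.19 and 0.0632) and the GC correction (0.63 and 0.50), for hypg9 against hypg75s and hypg15 against hypg3 with surrogate variables (-0.0974 and -0.16), and for the latter without library 80 (-0.000944, with -0.000944 to 0.134 over all libraries). With total counts, the median of all genes was 0.25, 0.267 and 0.271 at the 3 waiting times (from 0.00555, 0.00905 and 0.0102), and the calls at wait1min went from 7104 higher and 6882 lower to 8527 and 5218. The causes were not tested. Depth limits MIR22HG, with 33 to 100 counts per library, and MIR155HG, with at most 3.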

Other observations

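Over the 59 libraries at 9 g, the log2 CPM of the hosts had these Pearson correlations with each other, as a description of libraries that share depth and base composition: MIRLET7BHG with MIR17HG 0.551, MIRLET7BHG with MIR22HG 0.491, MIR17HG with MIR22HG 0.321, and MIR181A1HG with MIRLET7BHG -0.316, with MIR17HG -0.228 and with MIR22HG -0.083. Library 75, left out of every comparison, held 668 counts of MIRLET7BHG, 1168 of MIR17HG, 51 of MIR22HG, 141 of MIR181A1HG and 0 of MIR155HG.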
